A study of Homo sapiens with 36 samples.

Results

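The WNT ligand genes WNT7A, WNT7B, WNT10A and WNT5A were followed through the H3K27ac and JUNB ChIP-seq tables of SUM-229PE cells, a triple-negative breast cancer line that was established from pleural effusion material. Members are all regions that overlap 4 fixed windows of hg19: chr3:13830000-13960000 for WNT7A, chr22:46290000-46400000 for WNT7B, chr2:219720000-219785000 for WNT10A and chr3:55470000-55570000 for WNT5A. The regions of a table were chosen by the MACS2 enrichment of its own libraries. A region named for a peak of a single compared group was partly listed for being high in that group. This can favour rises and falls alike, and adjusted p-values do not allow for it. The 4 genes were picked with earlier results of these data known, without a record of which contrast led to them. Members number 141 of the 434639 regions and sites in the 7 count tables: 99 H3K27ac regions of 1001 bp in 6 tables, and 42 JUNB sites of 201 bp in the other. Because each table has its own region calls, the 99 H3K27ac regions were linked across tables by at least 50% reciprocal overlap into 31 distinct places, here called sites and numbered along each window: 7 at WNT7A, 12 at WNT7B, 7 at WNT10A and 5 at WNT5A. JUNB sites carry a J before the number, 9 at WNT7A, 14 at WNT7B, 9 at WNT10A and 10 at WNT5A.

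WNT proteins are secreted, lipid-modified ligands that bind Frizzled receptors and their LRP or ROR co-receptors on the cell surface. One branch of the pathway stabilises beta-catenin, which then acts with TCF/LEF factors on target genes, and another, for which WNT5A is best known, works without beta-catenin through cell polarity and calcium signals. In the mammary gland WNT signalling takes part in duct growth and in the upkeep of basal progenitor cells. H3K27ac, acetylation of lysine 27 on histone H3, marks active promoters and enhancers, and JUNB is a DNA-binding subunit of the AP-1 transcription factor.

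The cells had been sorted into an EpCAM+ CD49f+ fraction (POS) and an EpCAM- CD49f- fraction (NEG). The 36 libraries comprise 22 of H3K27ac, 4 of JUNB and 10 inputs, and the inputs were not used here. H3K27ac was profiled in POS cells under DMSO and after 24 h in 30 nM trametinib, an inhibitor of the MEK kinases (3 libraries each), in NEG cells under the same pair of conditions (2 each), and at day 0 and day 14 of chronic trametinib at 10 nM in POS and in NEG cells (2 each). The day 0 groups are named as the DMSO controls of the day 14 groups. POSR1 and POSR2 (2 each) carry the subpopulation label POSR, and the labels do not say what sets them apart or whether drug was present. JUNB was profiled in POS and NEG cells under DMSO (2 each). All groups are of the 1 cell line; the labels do not say whether replicates came from separate cultures, and the p-values rest on the spread between libraries alone, which may be technical. No day 14 group without drug was included, so drug and time in culture cannot be told apart there.

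Read counts in regions totalled 1861227 to 9212006 per H3K27ac library, lowest in NEG cells at day 14, and 4884516 to 8947351 per JUNB library. Levels are given as CPM, counts normalised to the reads in all regions of the same table with TMM scaling, and levels from different tables were scaled separately. The tables pair no region with a gene, and a window can hold more than the ligand gene: in RefSeq (GRCh38.p14) WNT6, another WNT ligand, adjoins WNT10A, and WNT5A-AS1 adjoins WNT5A. Markers of the sort, EPCAM and CD49f, were not checked for the same reason.

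To show what kind of start sites these ligand genes have, the 250 bases before the annotated start are given from RefSeq (GRCh38.p14), 5′ to 3′ on the gene's strand, with each CpG in capitals. They are chr3:13880072-13880321 (minus strand) for WNT7A, chr2:218880602-218880851 (plus strand) for WNT10A and chr3:55487307-55487556 (minus strand) for the first of the 2 WNT5A starts. The promoter set used had no entry for WNT7B, and the second WNT5A start, with 18 CpG, is not shown.
WNT7A: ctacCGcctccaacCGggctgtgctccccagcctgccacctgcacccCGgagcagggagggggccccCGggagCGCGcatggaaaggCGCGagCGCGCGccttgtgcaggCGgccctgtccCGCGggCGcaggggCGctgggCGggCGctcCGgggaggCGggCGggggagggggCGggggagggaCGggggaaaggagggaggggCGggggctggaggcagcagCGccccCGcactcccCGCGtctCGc
WNT10A: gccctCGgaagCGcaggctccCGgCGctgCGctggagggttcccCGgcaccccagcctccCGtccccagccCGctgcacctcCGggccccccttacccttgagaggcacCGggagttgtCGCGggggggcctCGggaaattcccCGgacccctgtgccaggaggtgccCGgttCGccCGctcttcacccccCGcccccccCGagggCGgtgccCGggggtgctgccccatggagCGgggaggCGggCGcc
WNT5A: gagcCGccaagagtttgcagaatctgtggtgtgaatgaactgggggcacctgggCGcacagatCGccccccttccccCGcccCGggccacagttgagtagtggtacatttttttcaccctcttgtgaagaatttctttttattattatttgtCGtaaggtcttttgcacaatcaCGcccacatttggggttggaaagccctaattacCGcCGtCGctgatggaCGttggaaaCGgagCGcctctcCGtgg
The WNT7A stretch holds 29 CpG at a GC content of 80.4%, and 14.1% of the 35116 RefSeq promoter stretches of that length hold as many. WNT10A has 24 CpG (as many in 23.7% of promoters) and WNT5A 14 (44.8%), against a median of 11 over all promoters. On either strand, none of the 3 held TGANTCA (an AP-1 motif, in 6.57% of promoters), TGACGTCA (a CRE motif, 1.65%), CTTTGAT (TCF/LEF, 2.26%) or CCGGAAGT (ETS, 3.42%). The hg19 regions were not placed on these stretches.

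Counted over the 4 windows, members were tested in the fits of their whole tables, with the quasi-likelihood test of edgeR and p-values Benjamini-Hochberg adjusted over all regions, and a region passed at an adjusted p under 0.05. In POS cells at 24 h, 14 of 22 passed the test, against 52.7% of all regions tested, 4 of them higher and 10 lower (26.7% and 26.0%), and the median log2 change of members was -0.27 against 0.02. At day 14 in POS cells, 18 of 19 passed (77.8% of all regions), 8 higher and 10 lower (39.5% and 38.2%), with a median of -0.37 against 0.03. In NEG cells at 24 h, 4 of 8 passed (36.5%), 0 higher and 4 lower (17.2% and 19.3%), and at day 14, 2 of 7 passed (48.6%), 2 higher and 0 lower (24.8% and 23.8%). The NEG response was above the POS response at 2 of 6 matched members at 24 h (14.1% of matched regions) and at 4 of 6 at day 14 (31.9%), and below at 0 of 6 each time (11.5% and 30.7%); either way, 25.6% and 62.6% of matched regions differed. Of the 16 sites listed in 2 or more trametinib tables, 3 rose in each table that lists them (WNT10A-2, WNT10A-5 and WNT7B-3) and 1 fell in each (WNT7B-5), against 14.8% and 13.9% of all 45401 sites so listed. All of these named sites are listed in POS trametinib tables and in no NEG one, so this says nothing of NEG cells. The authors' deposited tables gave adjusted p-values under 0.05 to 11 of 22, 12 of 19, 0 of 8 and 1 of 7 members in the same order of comparisons.

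**Figure D1:**
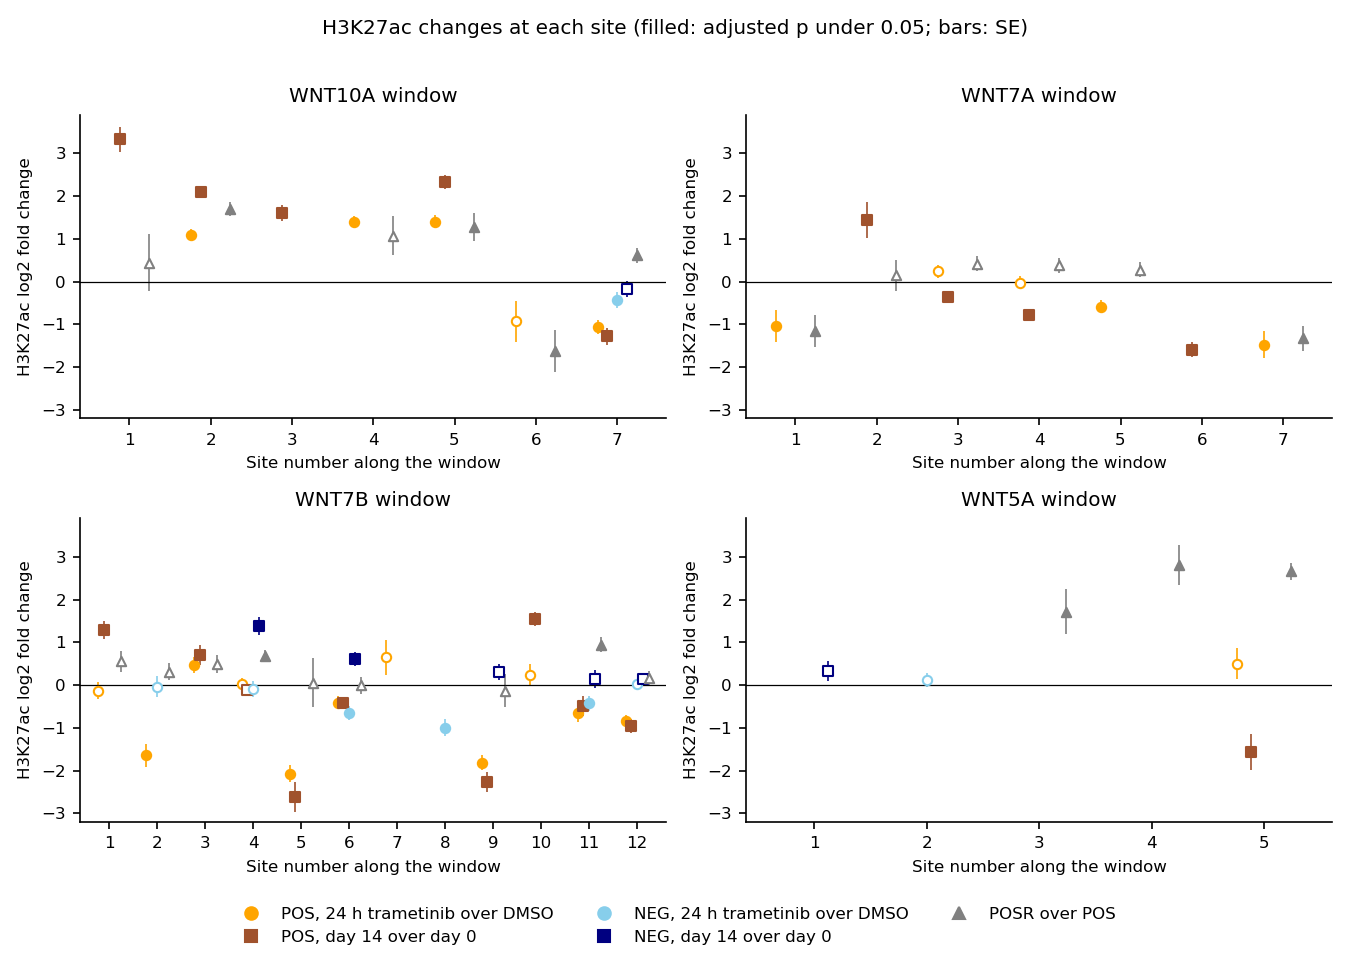
H3K27ac log2 fold change of each site in the 4 trametinib comparisons and in POSR over POS, 1 panel per window, with sites numbered along the window on the x axis, bars for the SE and filled symbols for an adjusted p under 0.05. WNT10A sites 1 to 5 lie above 0 under trametinib in POS cells and site 7 below, and at WNT7B filled symbols lie on both sides of 0.

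The WNT10A window gained H3K27ac in POS cells under trametinib at both 24 h and day 14. WNT10A encodes a ligand known from tooth, hair and skin development. Of 5 regions listed at 24 h in POS cells, 3 rose and 1 fell (26.7% and 26.0% of all regions). Of 5 listed at day 14, 4 rose and 1 fell (39.5% and 38.2%). Summed over the window, the level went from 53.9 ± 1.61 CPM under DMSO to 99.4 ± 6.94 CPM after 24 h (SD, n = 3 each), and from 80.9 ± 1.09 at day 0 to 276 ± 20.4 CPM at day 14 (SD, n = 2 each).

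WNT10A-5 (chr2:219761129-219762130) stood at 13.9, 13.4 and 14.6 CPM in the DMSO libraries and at 37.6, 33.0 and 40.2 CPM after 24 h of trametinib. Each treated library was above each control, a rise of 1.40 on the log2 scale (SE 0.15, edgeR adjusted p = 2.7e-14). At day 14 the same site read 89.9 and 71.3 CPM against 17.1 and 14.4 CPM at day 0, a log2 change of 2.33 (SE 0.16, edgeR adjusted p = 9.0e-31). WNT10A-2 (chr2:219748166-219749167) was at 11.4, 11.2 and 11.5 CPM under DMSO and at 23.9, 22.0 and 26.4 CPM after 24 h, 2.13-fold higher with no overlap (edgeR adjusted p = 1.7e-10). By day 14 it had the highest level of the 5 WNT10A sites listed, 138 CPM in both libraries against 31.4 and 33.5 CPM at day 0 (4.28-fold, edgeR adjusted p = 5.8e-30). WNT10A-4, between them, rose 2.62-fold at 24 h (30.0 ± 2.78 against 11.3 ± 2.74 CPM, SD, n = 3, edgeR adjusted p = 8.4e-14) and is not listed in the day 14 table. WNT10A-1 and WNT10A-3 are listed at day 14 and not at 24 h. WNT10A-1 went from 1.61 and 2.69 CPM to 21.8 and 19.0 CPM (10.0-fold, edgeR adjusted p = 2.1e-21) and WNT10A-3 from 9.81 and 8.38 to 32.5 and 23.7 CPM (3.04-fold, edgeR adjusted p = 5.1e-14). The WNT10A-1 region carries the name of a peak called at day 14 and was low at day 0. Its rise was thus partly fixed by the listing, and its adjusted p-value does not allow for this.

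WNT10A-7 (chr2:219773833-219774834), the last site of the window, went the other way. In POS cells it fell from 14.3, 13.0 and 15.7 CPM to 6.71, 7.18 and 6.79 CPM at 24 h, by 1.07 on the log2 scale (SE 0.17, edgeR adjusted p = 4.3e-08), and from 20.2 and 22.7 to 8.12 and 9.41 CPM at day 14, by 1.27 (SE 0.20, edgeR adjusted p = 5.7e-09). It is the 1 WNT10A site listed in NEG tables. There the DMSO libraries both read 16.5 CPM and the treated ones 11.7 and 12.8 CPM, a log2 change of -0.43 (SE 0.18, edgeR adjusted p = 0.0482) that was lost with library-total scaling (adjusted p = 0.0964), in DESeq2 (0.316) and without any 1 of the 4 libraries (0.0914 to 0.188). At day 14 in NEG cells it did not pass the test (24.2 and 23.1 against 24.4 and 29.6 CPM, edgeR adjusted p = 0.474). The difference between the NEG and POS responses was 0.57 at 24 h and 0.58 at day 14 on the log2 scale, and neither passed (edgeR adjusted p = 0.104 and 0.0619); the day 14 value passed with library-total scaling (0.90, adjusted p = 0.00401), without day 0 replicate 1 of POS (0.72, adjusted p = 0.0325) and without day 0 replicate 2 of NEG (0.70, adjusted p = 0.0385). WNT10A-6 was low, between 0.805 and 4.67 CPM over the 6 acute POS libraries, and did not pass (log2 -0.93, edgeR adjusted p = 0.0982), though it passed as lower without treated replicate 2 (-1.64, adjusted p = 0.0173) and without DMSO replicate 1 (-1.18, adjusted p = 0.0317).

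**Figure D2:**
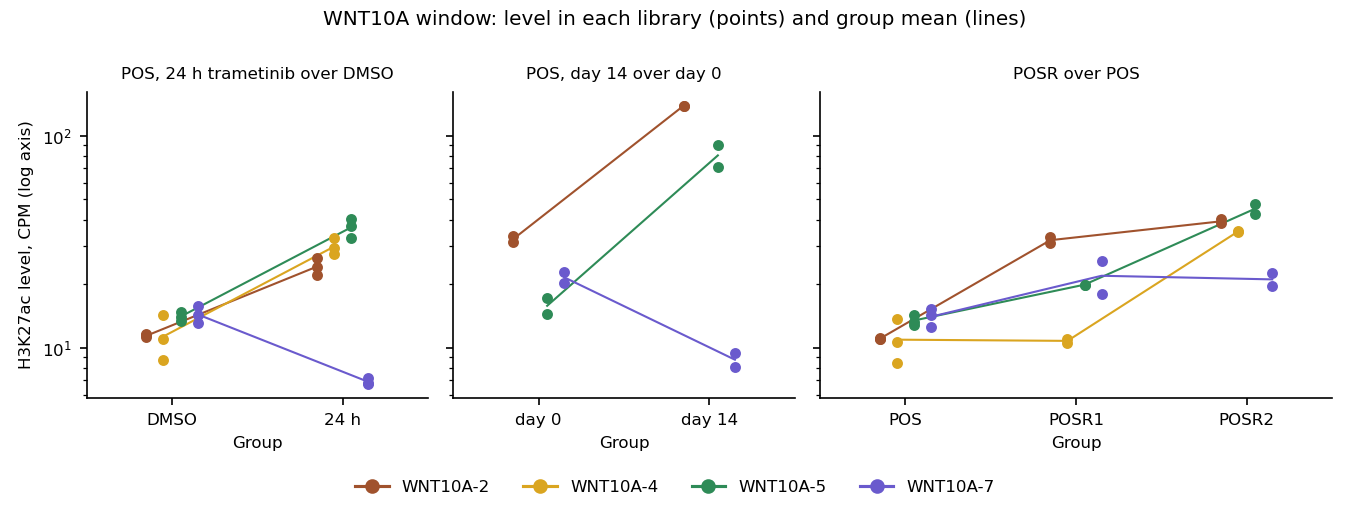
H3K27ac level (CPM, log axis) at WNT10A-2, WNT10A-4, WNT10A-5 and WNT10A-7 in each POS and POSR library (points) with group means (lines), in 3 panels for the 3 tables. WNT10A-2 and WNT10A-5 lie higher in all treated libraries than in their controls, at day 14 up to 138 CPM, and WNT10A-7 lies lower in the trametinib libraries and higher in the POSR libraries.

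At WNT7A, most of the sites that passed lost H3K27ac under trametinib in POS cells. WNT7A encodes a ligand known from limb patterning and the female reproductive tract. All 7 sites are in at least 1 POS trametinib table and 0 in a NEG one. Of 5 regions listed at 24 h, 3 fell (26.0% of all regions), and of 4 listed at day 14, 3 fell and 1 rose (38.2% and 39.5%).

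WNT7A-5 (chr3:13894701-13895702), the site of the window with the most H3K27ac in POS cells under DMSO, read 51.8, 36.0 and 47.4 CPM in the DMSO libraries and 31.7, 24.9 and 33.2 CPM after 24 h. The groups did not overlap, and the change was 0.664-fold (log2 -0.59, SE 0.15, edgeR adjusted p = 5.7e-04). Its neighbours WNT7A-3 and WNT7A-4 did not pass (log2 0.24 and -0.03, edgeR adjusted p = 0.173 and 0.898), although WNT7A-3 passed as higher with library totals (adjusted p = 0.0442), without treated replicate 2 (0.0396) and without DMSO replicate 1 (0.0125). The outer sites were low and fell further: WNT7A-7 (chr3:13932165-13933166) from 6.14, 4.27 and 7.48 to 2.55, 2.05 and 1.89 CPM (2.78-fold lower, edgeR adjusted p = 5.1e-05), and WNT7A-1 from 4.32 ± 0.688 to 2.11 ± 0.307 CPM (SD, n = 3, edgeR adjusted p = 0.0150, and 0.0681 without treated replicate 3). Both regions carry the names of peaks called under DMSO and were low after trametinib. Their falls were thus partly fixed by the listing, and their adjusted p-values do not allow for this.

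Of the 4 sites listed at day 14, the largest fall was at WNT7A-6 (chr3:13899211-13900212), a site listed in that table alone, from 30.7 and 28.7 CPM to 11.3 and 8.43 CPM (3.02-fold lower, edgeR adjusted p = 5.4e-15). The WNT7A-6 region carries the name of a day 0 peak, so its fall was partly fixed by the listing. WNT7A-4 went from 53.0 and 44.6 to 27.5 and 30.0 CPM (1.72-fold lower, edgeR adjusted p = 3.3e-07). WNT7A-3 fell by 0.37 on the log2 scale (edgeR adjusted p = 0.0142), lost in DESeq2 (0.158) and without day 14 replicate 1 (0.099), day 14 replicate 2 (0.168) or day 0 replicate 1 (0.567). WNT7A-2 rose from 1.96 and 2.69 to 7.01 and 5.29 CPM (2.73-fold, edgeR adjusted p = 0.00121), lost in DESeq2 (0.0505). Its log2 change was 1.45 with all libraries and 1.21 without day 14 replicate 1. This region too carries the name of a day 14 peak and was low at day 0, so its rise was partly fixed by the listing.

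At WNT7B, sites moved in both directions in POS cells, as regions in general did, and the POS and NEG responses differed at several. Over all matched regions these responses differed at 25.6% at 24 h and at 62.6% at day 14. WNT7B encodes a ligand known from lung, kidney and vessel development. In POS cells 6 of 11 regions fell and 1 rose at 24 h (26.0% and 26.7% of all regions), and 5 of 9 fell and 3 rose at day 14 (38.2% and 39.5%). In NEG cells 3 of 6 fell at 24 h (19.3%), and 2 of 5 rose and 0 fell at day 14 (24.8% and 23.8%).

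WNT7B-5 and WNT7B-9 had the largest falls in POS cells among these sites. WNT7B-9 (chr22:46364829-46365830) read 17.4, 15.8 and 15.0 CPM under DMSO and 4.16, 4.78 and 4.79 CPM after 24 h, a log2 change of -1.81 (SE 0.18, edgeR adjusted p = 1.9e-15), and 25.0 and 18.8 CPM at day 0 against 4.80 and 4.51 CPM at day 14 (-2.26, SE 0.23, edgeR adjusted p = 2.2e-17). WNT7B-5 (chr22:46321186-46322187) read 13.7, 12.2 and 13.6 CPM under DMSO and 3.62, 2.39 and 3.23 CPM after 24 h (4.20-fold lower, edgeR adjusted p = 8.7e-15), and it was 6.15-fold lower at day 14 (1.48 and 2.55 against 10.2 and 15.6 CPM, edgeR adjusted p = 2.3e-11). In each case all treated libraries lay below all controls. The POS regions of both sites carry names of DMSO or day 0 peaks and were low under trametinib. Their falls were thus partly fixed by the listing, and their adjusted p-values do not allow for this.

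WNT7B-12 (chr22:46392726-46393727) and WNT7B-2 fell in POS cells as well. WNT7B-12 read 33.6, 24.0 and 23.8 CPM under DMSO and 17.4, 13.3 and 14.8 CPM after 24 h (1.80-fold lower, edgeR adjusted p = 3.3e-07), and it was 1.94-fold lower at day 14 (edgeR adjusted p = 2.1e-07). WNT7B-2 went from 8.34 ± 0.556 to 2.68 ± 0.964 CPM at 24 h (SD, n = 3, 3.13-fold, edgeR adjusted p = 8.6e-08) and is not in the day 14 table. WNT7B-6 and WNT7B-11 fell less, by 0.41 and 0.65 on the log2 scale at 24 h (edgeR adjusted p = 0.0138 and 0.00819). The WNT7B-6 call was lost without treated replicate 2 (0.0625), and that of WNT7B-11 in DESeq2 (0.0511) and without treated replicate 3 (0.150). At day 14 they fell by 0.43 and 0.49 in the POS table (edgeR adjusted p = 0.00257 and 0.0401), but stood at 0.08 and 0.02 when scaled over the regions shared with NEG cells. For WNT7B-6 this was lost without either day 14 library (0.0962 and 0.0921), and for WNT7B-11 in DESeq2 (0.227), without either day 14 library (0.251 and 0.0541) and without day 0 replicate 2 (0.128).

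Other WNT7B sites rose in POS cells by day 14. WNT7B-10 (chr22:46371130-46372131) went from 12.8 and 12.3 to 36.7 and 37.4 CPM (2.93-fold, edgeR adjusted p = 3.7e-16), while at 24 h its groups overlapped (edgeR adjusted p = 0.448). Wherever it is listed, WNT7B-10 carries the name of a peak called under trametinib. Its rise was thus partly fixed by the listing, and its adjusted p-value does not allow for this. WNT7B-1 went from 8.39 and 6.88 to 18.8 and 19.2 CPM (2.43-fold, edgeR adjusted p = 3.2e-08), with 24 h groups that also overlapped (edgeR adjusted p = 0.585). The day 14 regions of WNT7B-1 and WNT7B-3 carry names of day 14 peaks too, but their 24 h regions carry names of DMSO peaks. WNT7B-3 was higher at both times (1.38-fold at 24 h, edgeR adjusted p = 0.0305, and 1.62-fold at day 14, edgeR adjusted p = 0.00478). Its 24 h call was lost in DESeq2 (0.137), with library totals (0.0552) and without any of the 3 treated libraries or of DMSO replicates 2 and 3 (0.05 to 0.117), and its day 14 call in DESeq2 (0.125) and without day 14 replicate 1 (0.139). WNT7B-4, a site with more H3K27ac than most (48.8, 36.8 and 42.7 CPM under DMSO), did not pass at either time (edgeR adjusted p = 0.923 and 0.391), though it passed as lower at day 14 without day 0 replicate 2 (log2 -0.23, adjusted p = 0.0434).

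In NEG cells the WNT7B sites that passed were lower at 24 h and higher at day 14. WNT7B-8, which overlaps WNT7B-9 by less than 50%, fell at 24 h from 21.9 and 14.7 to 8.08 and 10.3 CPM (1.99-fold, edgeR adjusted p = 1.4e-06). WNT7B-6 fell at 24 h from 19.7 and 27.3 to 14.1 and 15.9 CPM (1.56-fold, edgeR adjusted p = 3.5e-04), lost in DESeq2 (0.0631) and without DMSO replicate 2 (0.148). WNT7B-11 was 1.35-fold lower (edgeR adjusted p = 0.0441), lost in DESeq2 (0.311), with library totals (0.0897) and without any 1 library other than DMSO replicate 2 (0.0716 to 0.328). WNT7B-4 rose by day 14 from 13.3 and 11.2 CPM to 33.7 and 31.2 CPM (2.61-fold, edgeR adjusted p = 6.9e-08), and WNT7B-6 from 28.1 and 30.4 to 38.4 and 49.5 CPM (1.52-fold, edgeR adjusted p = 0.00118, lost in DESeq2 at 0.0864 and without day 14 replicate 2 at 0.123). WNT7B-12, the site with the most H3K27ac of the window in NEG cells, stayed between 59.6 and 68.9 CPM in all 4 acute libraries (edgeR adjusted p = 0.891).

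The responses of POS and NEG cells were compared directly in regions matched 1 to 1 between their tables, of which 6 were members at each time, 5 of them at WNT7B. At 24 h the NEG response was above the POS response at WNT7B-2 (difference 1.55 on the log2 scale, SE 0.40, edgeR adjusted p = 0.00188) and at WNT7B-12 (0.81, SE 0.18, edgeR adjusted p = 3.7e-04). The WNT7B-2 regions did not match at 80% overlap, and without NEG treated replicate 2 the difference was 1.13 (adjusted p = 0.0944). At day 14 it was above at WNT7B-9 (2.05, SE 0.30, edgeR adjusted p = 6.8e-11), WNT7B-4 (0.99, SE 0.24, edgeR adjusted p = 1.2e-04), WNT7B-12 (0.58, SE 0.21, edgeR adjusted p = 0.00938) and WNT7B-6 (0.52, SE 0.20, edgeR adjusted p = 0.0201). The last pair of calls was lost in DESeq2 (0.110 and 0.135). WNT7B-12 also missed the threshold without POS day 0 replicate 1 (0.38, adjusted p = 0.177) or NEG day 14 replicate 1 (0.47, 0.0668), and WNT7B-6 without NEG day 14 replicate 2 (0.32, 0.280) or NEG day 0 replicate 1 (0.46, 0.0907). Scaling over the shared regions also moved the POS responses themselves, by a median of 0.12 on the log2 scale over 18185 regions at 24 h and of 0.51 over 15793 regions at day 14. At day 14 the POS response was 0.08 at WNT7B-6, 0.02 at WNT7B-11 and 0.38 at WNT7B-4 in that fit, against -0.43, -0.49 and -0.12 in the table of POS cells alone, so the sign of these 3 depends on the regions used for scaling. The day 14 fall of WNT7A-3 in POS cells, 0.37, is also smaller than this shift, and that site has no match in the NEG table.

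**Figure D3:**
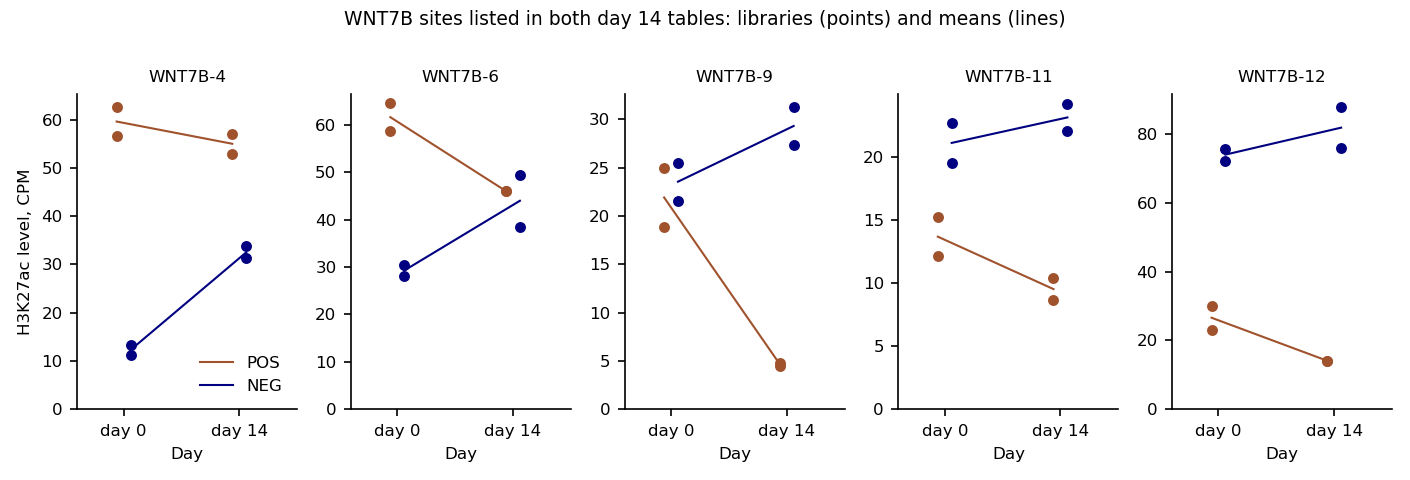
H3K27ac level (CPM, linear axis from 0) at the 5 WNT7B sites listed in both day 14 tables, in each library (points) with means (lines), POS in brown and NEG in blue, each scaled in its own table. At WNT7B-9 the POS libraries go from 25.0 and 18.8 to 4.80 and 4.51 CPM while the NEG libraries stay between 21.6 and 31.2 CPM.

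WNT5A encodes the ligand best known for signalling without beta-catenin. Its window held few H3K27ac regions, and NEG and POS tables listed different ones. WNT5A-1 and WNT5A-2, which overlap by less than 50%, are the sites of the NEG tables, and neither passed a trametinib test in NEG cells. WNT5A-2 (chr3:55501069-55502070) read 18.7 and 15.7 CPM under DMSO and 20.4 and 16.9 CPM after 24 h (edgeR adjusted p = 0.630), and WNT5A-1 read 13.6 and 18.5 CPM at day 0 and 19.5 and 20.2 CPM at day 14 (edgeR adjusted p = 0.238). WNT5A-5 (chr3:55555067-55556068) is the site of the POS tables. At day 14 it carries the name of a day 0 peak, so a fall there was partly fixed by the listing. It stood at 2.63, 3.25 and 2.18 CPM under DMSO and 4.29, 3.59 and 3.45 CPM after 24 h (edgeR adjusted p = 0.242), and it was lower at day 14 (3.14 and 1.18 against 6.25 and 6.88 CPM, 2.96-fold, edgeR adjusted p = 4.4e-04, and 0.0868 without day 14 replicate 2).

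In POSR cells all 3 WNT5A sites listed, 3 of 6 WNT10A sites and 2 of 9 WNT7B sites were higher than in POS cells, and 2 of 6 WNT7A sites and 1 WNT10A site were lower. The WNT5A regions here carry the names of peaks called in POSR libraries, and WNT5A-3 and WNT5A-4 are listed in no other comparison. Their higher level in POSR cells was thus partly fixed by the listing, and their adjusted p-values do not allow for this. Over the 24 members listed, 11 passed (36.1% of all regions), 8 higher and 3 lower (17.5% and 18.5%), and 12 passed in the authors' deposited table. The POS DMSO libraries are those of the 24 h comparison, so the comparisons share their controls. POSR1 and POSR2 were pooled as 4 independent libraries, though they differed from each other at 40.5% of all regions. The p-values of POSR over POS do not allow for this grouping. WNT5A-5 read 2.53, 2.95 and 2.42 CPM in POS, 16.7 and 14.9 in POSR1, and 17.8 and 16.9 in POSR2, a log2 change of 2.66 (SE 0.20, edgeR adjusted p = 4.8e-05). WNT5A-4 (chr3:55546217-55547218) read 1.08, 0.589 and 1.21 CPM in POS, 5.62 and 3.82 in POSR1, and 11.5 and 7.09 in POSR2 (2.81 on the log2 scale, SE 0.46, edgeR adjusted p = 0.00157). For both sites every POSR library lay above every POS library. WNT5A-3 was 3.29-fold higher (edgeR adjusted p = 0.0272), lost without POSR1 replicate 1 (0.0539), POS replicate 1 (0.0508) or POS replicate 3 (0.0599).

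At WNT10A in POSR cells, WNT10A-2 read 11.0, 11.0 and 11.1 CPM in POS, 31.0 and 33.2 in POSR1, and 40.2 and 38.6 in POSR2 (3.25-fold, edgeR adjusted p = 1.1e-04). The POS libraries of day 0, scaled separately and not part of this comparison, stood near the POSR1 level at WNT10A-2. The POS controls of the acute and day 0 sets were thus not alike there, and the cause was not tested. WNT10A-5 was 2.42-fold higher with no overlap (edgeR adjusted p = 0.0143), lost without any of the 3 POS libraries (0.0528 to 0.0631). It was also 2.28-fold higher in POSR2 than in POSR1, so the pooled fold describes neither group alone. WNT10A-4 differed between POSR1 and POSR2: 10.5 and 11.0 CPM in POSR1, 35.5 and 35.1 CPM in POSR2, and 13.6, 10.6 and 8.48 CPM in POS (edgeR adjusted p = 0.0950 for POSR over POS, passing in DESeq2 at 0.0387 and without either POSR1 library at 0.0279 and 0.0258). WNT10A-7, which fell under trametinib in POS cells, was 1.53-fold higher in POSR cells (21.8 ± 5.43 CPM in POSR1 and 21.0 ± 1.98 in POSR2, SD, n = 2, against 14.0 ± 1.30 in POS, n = 3, edgeR adjusted p = 0.0209), lost without any of the 3 POS libraries (0.0570 to 0.0739). WNT10A-6 was 3.07-fold lower (edgeR adjusted p = 0.0278), lost without either POSR2 library (0.0648 and 0.0585) and without POS replicate 2 (0.114) or 3 (0.0569). The WNT10A-6 region carries the name of a peak called in POS, so its lower level in POSR was partly fixed by the listing.

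WNT7B-11 and WNT7B-4 were also higher in POSR cells. WNT7B-11 read 8.43, 7.85 and 8.18 CPM in POS, 17.3 and 17.9 in POSR1, and 14.2 and 13.7 in POSR2 (1.93-fold, edgeR adjusted p = 0.00307). WNT7B-4 was 1.60-fold higher (edgeR adjusted p = 0.00636). At WNT7A the outer sites were lower, WNT7A-7 2.52-fold (edgeR adjusted p = 0.00664, and 0.0504 without POS replicate 3) and WNT7A-1 2.24-fold (edgeR adjusted p = 0.0340, lost without either POSR2 library or any POS library, 0.0747 to 0.103), while WNT7A-3, WNT7A-4 and WNT7A-5 did not pass (edgeR adjusted p = 0.0918, 0.138 and 0.221). WNT7A-3 passed as higher without POSR2 replicate 1 (0.0499) or POS replicate 1 (0.0489). The WNT7A-7 and WNT7A-1 regions carry names of POS peaks, so their lower level in POSR was partly fixed by the listing.

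Between POSR2 and POSR1, 8 of 24 members differed (40.5% of all regions), 5 higher in POSR2 and 3 lower (21.2% and 19.3%). WNT10A-4 was 3.28-fold higher in POSR2 (edgeR adjusted p = 1.7e-25), WNT10A-5 2.28-fold (edgeR adjusted p = 4.6e-13) and WNT10A-1 4.25-fold (edgeR adjusted p = 1.0e-04, and 0.0771 without POSR1 replicate 2). WNT7B-5 was 5.22-fold lower in POSR2 (22.6 and 22.0 CPM in POSR1 against 4.55 and 3.94, edgeR adjusted p = 4.2e-33), with POS at 13.1, 11.8 and 13.2 CPM between them. WNT7B-9 was 2.78-fold lower (edgeR adjusted p = 7.3e-16) and WNT7B-6 1.55-fold (edgeR adjusted p = 0.00104, and 0.0568 without POSR2 replicate 1). WNT5A-4 and WNT7B-1 were higher in POSR2 by 1.00 and 0.56 on the log2 scale (edgeR adjusted p = 0.00138 and 0.00872). Both were lost in DESeq2 (0.0607 and 0.158), WNT5A-4 also without POSR1 replicate 2 (0.116) or POSR2 replicate 1 (0.311), and WNT7B-1 without POSR1 replicate 2 (0.0775) or POSR2 replicate 2 (0.390).

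The levels of untreated POS and NEG cells under DMSO are given as a description with no test, since the genes may have been chosen for this difference. Of 19 H3K27ac members, 10 were 2-fold or more higher in POS and 2 in NEG, against 30.8% and 28.9% of all regions (12 either way, against 59.8%). Of the 39 JUNB sites of 42 that passed the count filter, 15 were 2-fold or more higher in POS and 10 in NEG, against 26.0% and 26.2% of all sites (25 either way, against 52.1%). At WNT7A, WNT7A-5 had 52.3, 36.9 and 48.4 CPM in POS and 0.178 and 0.177 CPM in NEG, where 2 reads were counted in all, a ratio of 265 (95% exact interval 73.2 to 2194, counting error only). JUNB at WNT7A-J6, inside that region, had 382 reads in POS and 1 in NEG, a ratio of 392 (70.0 to 15538), and WNT7A-J7 269 and 1 (276, 49.2 to 10954). All 7 WNT7A JUNB sites that passed the filter were 2-fold or more higher in POS. Every WNT7A JUNB site carries the name of a peak called in POS. Apart from WNT7A-J2, those that passed had at most 4 reads in each NEG library. Their shared direction was thus partly fixed by the listing and the filter.

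WNT10A showed the same direction at WNT10A-2 (11.6 ± 0.157 CPM in POS, n = 3, and 1.33 ± 0.379 in NEG, n = 2, SD), WNT10A-4 (11.5 ± 2.71 and 0.976 ± 0.626) and WNT10A-5 (14.8 ± 0.882 and 2.04 ± 0.130), while WNT10A-7 overlapped between POS and NEG (14.9, 13.4 and 15.9 against 14.8 and 14.7 CPM). JUNB at WNT10A-J6 (chr2:219760090-219760291), inside WNT10A-4, was at 20.7 and 16.2 CPM in POS and 0.944 and 0.348 CPM in NEG. At WNT5A the direction was opposite. WNT5A-2 had 0.253, 1.46 and 0.636 CPM in POS and 16.7 and 14.0 CPM in NEG, and 8 of 10 WNT5A JUNB sites were 2-fold or more higher in NEG, with WNT5A-J5 (chr3:55510696-55510897) at 6.84 and 10.3 CPM in NEG and 0.465 and 0.572 CPM in POS. WNT5A-J7 alone of these was 2-fold or more higher in POS (2.91 and 3.05 against 0.826 and 1.92 CPM), by 1.19 on the log2 scale, which was 0.69 without NEG replicate 1 and 1.83 without NEG replicate 2. The 8 sites higher in NEG carry names of NEG peaks, and WNT5A-J7 that of a POS peak. These directions were thus partly fixed by the listing. Of the 10 WNT5A JUNB sites, 8 lie outside the H3K27ac regions of every table, a share that was not measured over all JUNB sites.

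WNT7B was mixed. WNT7B-4 had 49.0, 36.7 and 42.6 CPM in POS and 10.5 and 11.9 CPM in NEG, and WNT7B-1 had 8.02 ± 1.32 CPM in POS (SD, n = 3) and 1.15 ± 0.379 in NEG (n = 2). WNT7B-12 was higher in NEG, at 55.8 and 63.7 CPM against 33.3, 24.4 and 24.3 CPM. The JUNB site with the highest mean over POS and NEG in any of the 4 windows, WNT7B-J9 (chr22:46365027-46365228), had 84.2 and 110 CPM in NEG and 55.1 and 43.7 CPM in POS. WNT7B-J6 and WNT7B-J14 were 10.7-fold and 6.58-fold higher in NEG and lie outside all H3K27ac regions. The POS and NEG libraries of day 0 are also DMSO controls, but separate libraries from those above. The genes may have been chosen for this difference too, so the values at the 6 matched members are a description. POS was higher at WNT7B-4 (2.70 on the log2 scale, SE 0.16) and WNT7B-6 (1.52, SE 0.14) and lower at WNT7B-12 (-1.01, SE 0.13). At an edgeR adjusted p under 0.05, 2 were higher and 1 lower of 6, against 36.3% and 36.5% of matched regions (3 either way, against 72.8%). These counts are part of that description and are not a test of the chosen genes. At WNT7B-9 the difference was 0.35, which did not pass, and 0.48 without POS day 0 replicate 2.

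In all, 26 of the 42 JUNB sites lie in an H3K27ac region of some table, and 19 of them could be set beside an H3K27ac value of the DMSO table. Over all JUNB sites that passed the filter, 49730 of 141580 could be set beside such a value. The difference between POS and NEG had the same sign in 18 of these 19, against 83.1% of all 49730 such pairs. Both were 2-fold or more higher in POS in 9 (24.5% of all pairs) and 2-fold or more higher in NEG in 1, WNT5A-J3 (20.7%). At WNT10A-7, which holds a pair of these JUNB sites, the H3K27ac difference was near 0 and its sign turned with library totals, DESeq2 size factors and DESeq2. Some pairs share an H3K27ac region, and the H3K27ac and JUNB libraries are of the same POS and NEG cell groups. The nearest regions outside the windows were mixed (means without scaling factors). At WNT7B they had 7.33 CPM in POS and 2.28 in NEG 5644 bp before, and 93.6 and 21.0 CPM 3160 bp after (chr22:46403160-46404161). The latter is opposite in direction to WNT7B-12, the last H3K27ac site of that window. At WNT5A they had 0.880 and 18.4 CPM 19214 bp before (chr3:55449785-55450786), and 0.899 and 3.71 CPM 205847 bp after. At WNT7A they had 7.88 and 7.02 CPM before, and 33.6 and 0.856 CPM after. At WNT10A they had 20.4 and 21.9 CPM before, and 20.4 and 24.9 CPM after.

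**Figure D4:**
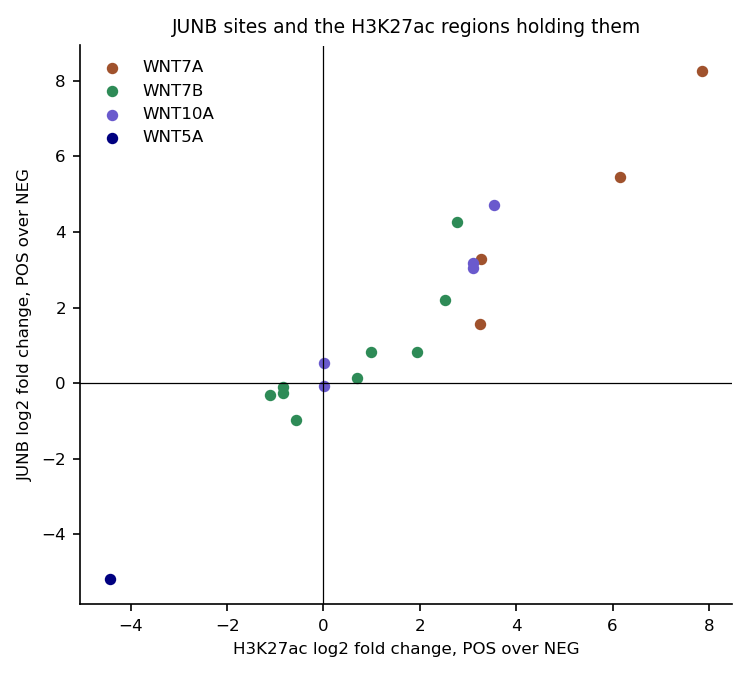
JUNB log2 fold change of POS over NEG (y axis) against that of H3K27ac in the region holding the JUNB site (x axis), under DMSO, for 19 pairs coloured by window. The WNT7A points lie above 0 on both axes and the 1 WNT5A point lies below 0 on both.

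Likeness of pattern over the 4 trametinib comparisons was measured as the Euclidean distance between log2 changes, among 10372 regions listed in all 4 tables, for the site with the highest level of each window. Of these 4 sites, WNT10A-7 and WNT7B-12 are listed in all 4 tables. Nearest to WNT10A-7 was chr7:76248124-76249125 at a distance of 0.146, with log2 changes of -1.02 (POS 24 h), -0.33 (NEG 24 h), -1.29 (POS day 14) and -0.08 (NEG day 14), beside -1.07, -0.43, -1.27 and -0.17 at WNT10A-7. Nearest to WNT7B-12 was chr12:106506204-106507205 at 0.165, with -0.87, -0.10, -0.89 and 0.06 beside -0.85, 0.03, -0.95 and 0.15.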

How the data were processed

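Per the submitters' processing notes, cutadapt 1.12, STAR 2.5.2b, featureCounts, MACS2 and DESeq2 were used with hg19. The authors deposited raw read counts per region for 7 tables of region unions called with MACS2, per the file names in the labels, and DESeq2 tables with a mean normalized signal, log2 fold changes, a test score, p-values and adjusted p-values per region, which were used only for counts of the authors' calls. The count base of region starts, 0 or 1, is not given in the sources used here. In the 24 h tables the treated columns are headed GSK; as each such table compares trametinib with DMSO, they stand for trametinib.

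The members and lists were chosen with earlier results of these data known. Each comparison was fitted on its whole table with edgeR 4.0.16 in R 4.3.3 (quasi-likelihood test, TMM factors, default filter with a minimum count of 10, Benjamini-Hochberg adjustment, threshold 0.05), and the script was tested on simulated data. A fold change of a tested site is edgeR's, its SE is the log2 change divided by the root of F. POSR over POS compares 4 libraries with 3, and POSR2 over POSR1 was fitted with POS in the model. POS and NEG responses were compared in regions matched 1 to 1 by at least 50% reciprocal overlap. Named were, per window, the site with the highest level, those with the lowest adjusted p in each direction and comparison, the POS and NEG extremes and the same for JUNB; other sites were added to account for every call. Alternatives were DESeq2 1.42.0, its size factors in edgeR, library totals, no filter, a replicate block, 80% overlap, midpoints in the window and leaving out each library. Same-numbered libraries correlated at 0.119, 0.375 and -0.02 in the acute POS table, so the numbers were not taken as pairs. Intervals cover counting error only, because PCR reads without molecular identifiers are not independent.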

Additional observations from a re-analysis of the deposited data

Results flagged for a closer look

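WNT7A-7 in POSR2 replicate 1 was the lowest of the 4 POSR libraries, with 14 reads (1.68 CPM) against 18, 21 and 19, of which the highest level was 2.53 CPM. The gap is past Dixon's 95% critical value for 4 samples because the other 3 lie close together, and these are low counts; 24 sites were tested this way, and chance marks about 1 group in 20. The NEG and POS responses to trametinib differed by a test of the difference itself at 24 h at WNT7B-2 (1.55, NEG minus POS on the log2 scale) and WNT7B-12 (0.81), and at day 14 at WNT7B-4 (0.99), WNT7B-6 (0.52), WNT7B-9 (2.05) and WNT7B-12 (0.58).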

How the results depend on the processing

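No called value changed sign under the alternatives of this paragraph, though values that did not pass did in some; scaling over the regions shared with NEG cells, a separate fit, did turn the day 14 POS values of WNT7B-6 and WNT7B-11 (to 0.08 and 0.02). Of 916 values for single sites under another setting, 883 stayed on their side of the threshold, 25 lost their call and 8 gained one; with 1 library left out, 894 of 1008 stayed, 58 lost their call, 21 gained one and 35 without a test moved by more than the replicate spread. Calls in NEG cells at 24 h numbered 4, 2 with library totals, 1 in DESeq2 and 2 without any 1 library; at day 14 they numbered 2, 1 in DESeq2 and 1 to 2 with a library left out. POSR over POS had 11 calls, 5 to 12 with a library left out (5 without POS replicate 3, 7 without POS replicate 2) and 3 with a replicate block, a fit in which calls over all regions went from 19205 to 6777; WNT7B-11 (adjusted p = 0.0535) and WNT7B-4 (0.0734) were among those lost. Same-numbered libraries of that table correlated at -0.20 to 0.09, so the numbers do not pair them, and the block moved no other count of calls by over 1.5 times. It added WNT10A-6 in POS cells at 24 h (0.0457). POSR2 over POSR1 had 8 calls, 5 to 13 with a library left out (5 without POSR1 replicate 2, 13 without POS replicate 2). The NEG minus POS difference had 2 calls at 24 h, 1 with 80% matching overlap and 1 to 2 with a library left out (1 without NEG treated replicate 2), and at day 14 it had 4, 2 in DESeq2 and 3 to 5 with a library left out. Leaving out a library gave 11 to 16 calls in POS cells at 24 h (14 with all), 13 to 18 at day 14 (18), 3 to 4 for POS over NEG at day 0 (3), and 12 to 13 H3K27ac (12) and 25 to 28 JUNB members (25) at 2-fold between POS and NEG. Over all regions, DESeq2 called 10146 in NEG cells at 24 h against 19877, and 7501 at day 14 against 13699. Library totals shifted the median day 14 NEG minus POS difference from 0.02 to 0.34, with 65.6% of calls higher against 50.9%, and the median POS over NEG H3K27ac change from -0.04 to -0.19. The cause of these changes was not tested. NEG cells at day 14 had the lowest totals, though a median count per region of 48 and 52, beside 49 to 51 in NEG cells at 24 h. With 2 or 3 libraries a group, a site that did not pass is not shown to be unchanged.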
